A study of Rattus norvegicus with 10 samples.

Results

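Cst7, which encodes cystatin F, was followed here in rat muscle together with the related inhibitors Cst3 and Cstb and the lysosomal proteases Ctsc, Ctsh, Ctsl1, Ctsb, Ctss and Ctsd. The 9 genes were found by symbol, 1 transcript each, among the 17221 transcripts of the expression table. Cst7 was picked because its level was far above the rest 1 h after acupuncture, so its values in comparisons with that group describe the choice and are given with no test. The other 8 were listed by name as its relatives and possible targets.

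The RNA-seq libraries came from female Wistar rats in which arthritis had been induced with collagen to model rheumatoid arthritis, and the tissue was the muscle under the skin around the stimulated points. All animals, those sampled before therapy included, had been immunised with bovine type II collagen in complete Freund's adjuvant and boosted in incomplete adjuvant, and no library of a healthy rat was analysed here. RA_0 animals had received no therapy. Acupuncture animals, in which a short needle was inserted and twirled on the lower back and below the knee, were killed 1 h (AP_1h) or 34 days (AP_34d) into treatment. Placebo animals (PLA_1h, PLA_34d) were taken at the same times. By the study's methods the placebo was saline injected into the peritoneum, away from the tissue taken. Each of the 5 groups held 2 animals, and their age is not given in the sources used here.

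Cystatins are small proteins that block papain-like cysteine proteases by filling the active site. Most cystatins are secreted or stay in the cytosol, whereas cystatin F is made mainly by leukocytes and is carried to lysosomes and granules, where it can hold back cathepsin C, the enzyme that activates the serine proteases of granules. In muscle, lysosomal cathepsins take part in protein turnover, and cathepsin L is known as a gene that rises in wasting muscle.

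Levels are given as CPM, counts per 1000000 reads after TMM scaling, which sets libraries of different composition to a common level. Libraries held 5371687 to 8899521 counted reads, and 1 CPM stood for 4.19 to 10.1 reads. Where no read was counted, the level may still be up to 0.297 to 0.716 CPM by library (3 reads, counting error only). PLA_34d replicate 1 stood apart, with a mean correlation across transcripts of 0.954 with the other libraries against 0.972 to 0.980 for the rest. All 15 skeletal muscle markers in the table were read, and their summed level ran from 158003 CPM in PLA_34d replicate 1 to 409099 CPM in RA_0 replicate 1. Changes are log2 differences of CPM + 1 from a limma model over all 10 libraries, with p-values adjusted over 10259 transcripts. A transcript was tested where some group had 1 CPM or more in each of its libraries, which all 9 genes met. A p-value sets a change against the spread between animals, pooled over all groups and drawn towards that of transcripts of similar level. With 2 animals a group, it speaks for these animals only.

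The bases before the start of Cst7 and Ctsl1 are shown because these genes had the widest ranges across the libraries. Both stretches are the 250 bases upstream of the RefSeq gene start in assembly GRCr8, 5′ to 3′ on the plus strand, Cst7 at chr3:159857030-159857279 and Ctsl1, today Ctsl, at chr17:769854-770103. Capitals mark matches to GGAAGT (the core of ETS factor sites), CCAAT (the CCAAT box) and GGGCGG (the GC box) on either strand.

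Cst7: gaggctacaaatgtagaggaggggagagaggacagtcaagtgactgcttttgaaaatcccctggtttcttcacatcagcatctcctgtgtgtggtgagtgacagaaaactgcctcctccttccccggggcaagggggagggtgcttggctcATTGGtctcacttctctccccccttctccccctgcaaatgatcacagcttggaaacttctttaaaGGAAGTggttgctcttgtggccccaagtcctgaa

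Ctsl1: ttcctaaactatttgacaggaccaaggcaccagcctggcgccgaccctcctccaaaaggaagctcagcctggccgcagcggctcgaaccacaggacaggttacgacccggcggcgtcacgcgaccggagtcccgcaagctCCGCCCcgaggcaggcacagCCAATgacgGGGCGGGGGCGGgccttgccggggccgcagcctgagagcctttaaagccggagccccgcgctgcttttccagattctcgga

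The Cst7 stretch held 1 match to GGAAGT, which starts 34 bases before the gene start, and 1 CCAAT box on the opposite strand, 99 bases before it. The Ctsl1 stretch held 1 CCAAT box and 3 GC boxes, of which a pair stands side by side. Of 33469 rat stretches of the same length, 19.2% held GGAAGT, 34.0% the CCAAT box and 30.5% the GC box. The E-box CACGTG (5.59% of stretches), the C/EBP element TTGCNNAA (9.22%) and the TATA box TATAAA (12.9%) had no match in either. The G and C share was 52.4% before Cst7 and 66.8% before Ctsl1, against a median of 51.2%. These are matches of letters and show no binding.

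Cst7 (NM_001106523, rn4 chromosome 3, 141188442 to 141199756, plus strand) had the widest range of the 9 genes, with an 83.0-fold difference between its lowest and highest library. Its level was 5.01 and 13.96 CPM in the RA_0 libraries, 21 and 94 reads. At AP_1h it was 416 and 293 CPM, 3848 and 2097 reads. Both acupuncture libraries at 1 h lay above all 8 others, which is the pattern the gene was picked for. At PLA_1h, placebo at the same time, it was 81.4 and 23.2 CPM. At 34 days it was 22.1 and 17.3 CPM after acupuncture (AP_34d) and 10.3 and 13.5 CPM after placebo (PLA_34d). From high to low, the group means were 355 ± 86.7 CPM at AP_1h, 52.3 ± 41.2 at PLA_1h, 19.7 ± 3.35 at AP_34d, 11.9 ± 2.25 at PLA_34d and 9.49 ± 6.33 at RA_0 (SD, n = 2). Of the neighbours in that order, the libraries of PLA_34d and RA_0 overlapped and those of the other pairs did not.

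**Figure D1:**
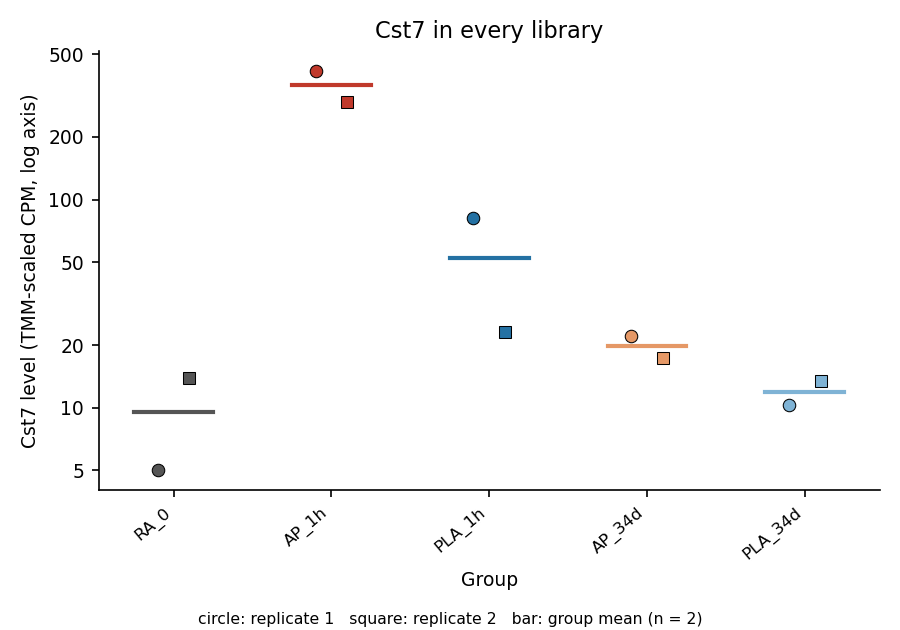
Level of Cst7 in every library, in TMM-scaled CPM on a log axis, by group. Circles are replicate 1, squares replicate 2 and bars the group means (n = 2). AP_1h stands at 416 and 293 CPM, and PLA_1h, at 81.4 and 23.2 CPM, lies between it and the other groups.

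The fitted log2 change of Cst7 was 5.21 ± 0.57 (SE) from RA_0 to AP_1h and 2.97 ± 0.57 from PLA_1h to AP_1h, both given as a description. Group means differed 37.4-fold and 6.79-fold in these comparisons. In the comparisons that did not include AP_1h, Cst7 did not pass the limma test. From RA_0 to PLA_1h its log2 change was 2.23 ± 0.57 (95% interval 0.96 to 3.51, limma unadjusted p 0.00292, adjusted p 1.00), with both placebo libraries above both RA_0 libraries. Over all settings tried, the adjusted p of this change ran from 0.0539 to 1.00, and without PLA_1h replicate 1 the change was 1.35. From RA_0 to AP_34d the log2 change was 1.12 ± 0.57 (limma adjusted p 0.967), with no overlap of the libraries, and it was 0.46 without RA_0 replicate 1 and 1.77 without RA_0 replicate 2. Between acupuncture and placebo at 34 days it was 0.68 ± 0.57 (limma adjusted p 0.911), and from RA_0 to PLA_34d it was 0.43 ± 0.57 (limma adjusted p 0.914). A choice by the rise at AP_1h can favour low RA_0 values, so the tests against RA_0 are not free of it. The comparisons with RA_0 share its libraries, and RA_0 replicate 1 had the lowest value of all. Without it the change from RA_0 to PLA_34d turned to -0.22, and it was 1.09 without RA_0 replicate 2 and 0.26 without PLA_34d replicate 2.

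The ratio of Cst7 reads to Ctsc reads in the same library needs no scaling between libraries. Cathepsin C, or dipeptidyl peptidase I, trims the activation peptides from granzymes and other granule serine proteases. The ratio was 0.0695 and 0.159 at RA_0, 6.09 and 3.55 at AP_1h, 0.815 and 0.265 at PLA_1h, 0.235 and 0.193 at AP_34d and 0.115 and 0.145 at PLA_34d. The AP_1h libraries stood above all others. As the CPM of Ctsc ranged only 1.46-fold, this repeats the pattern Cst7 was picked for and is no separate support. Ratios of reads depend on transcript length and are compared here between libraries only.

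Cystatin C and cystatin B, the inhibitors that most cells make, did not follow Cst7. Cst3 (cystatin C, NM_012837, rn4 chromosome 3, 137650907 to 137654776, minus strand) is secreted into body fluids, and its highest library differed 2.80-fold from its lowest. It was 501 and 495 CPM at RA_0, 588 and 334 at AP_1h, 395 and 682 at PLA_1h, 847 and 331 at AP_34d and 302 and 528 at PLA_34d. All neighbouring groups in the order of its means overlapped. Cstb (cystatin B, NM_012838, rn4 chromosome 20, 10576664 to 10578706, minus strand) stays in the cytosol and nucleus. Its levels ran from 25.2 CPM in AP_1h replicate 2 to 45.4 CPM in AP_1h replicate 1, with a median of 30.2 CPM, so that the libraries of 1 group spanned the whole range. The 95% intervals from RA_0 to AP_1h were -1.34 to 1.01 for Cst3 and -0.87 to 0.86 for Cstb on the log2 scale.

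The other cystatins were at or near 0. Of 17 transcripts of 16 listed genes, 4 had a read in any library, none passed the filter on low values, and their summed level was at most 0.896 CPM in a library. The 4 were Cst6, Fetub, Csta and Kng1.

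Ctsc (NM_017097, rn4 chromosome 1, 144629802 to 144661183, plus strand) was the steadiest of the 9 genes, with a 1.46-fold range over all libraries. It was 72.0 and 87.8 CPM at RA_0, 68.3 and 82.7 at AP_1h, 99.8 and 87.4 at PLA_1h, 93.7 and 89.8 at AP_34d and 89.7 and 93.4 at PLA_34d. The AP_1h libraries lay below those of PLA_1h without overlap, with a log2 change of -0.31 (95% interval -0.91 to 0.30, limma adjusted p 1.00). Of the granule serine proteases that cathepsin C activates, 17 of 22 transcripts had a read in any library and 5 passed the filter. Their summed level was 13.4 and 11.1 CPM at RA_0, 17.3 and 8.82 at AP_1h, 6.15 and 7.55 at PLA_1h, 19.1 and 7.77 at AP_34d and 19.4 and 4.83 at PLA_34d, in order of replicate. The mast cell proteases Cma1 and Tpsb2 had the highest means, 3.05 and 2.86 CPM, and Ctsg (cathepsin G) had no read in any library. None of the 5 was called in any comparison, and Gzmk was higher in AP_1h than in RA_0 and in PLA_1h at an unadjusted p under 0.05. This was 1 of 5 in each, against 8.89% and 4.04% of all transcripts, in both directions together.

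Ctsh (cathepsin H, NM_012939, rn4 chromosome 8, 94971689 to 94990434, plus strand), an aminopeptidase, had its highest group mean at RA_0. It was 84.5 and 67.6 CPM at RA_0, 66.7 and 66.2 at AP_1h, 61.9 and 50.5 at PLA_1h, 82.2 and 30.2 at AP_34d and 61.0 and 43.5 at PLA_34d. The libraries of AP_1h, PLA_1h and PLA_34d all lay below those of RA_0, for AP_1h by a narrow margin, 66.7 against 67.6 CPM. Its log2 changes from RA_0 ran from -0.59 to -0.18, and none passed the limma test. The lowest unadjusted p among them was 0.199.

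Ctsl1 (cathepsin L, NM_013156, rn4 chromosome 17, 6288016 to 6294174, plus strand) is an endopeptidase of lysosomes and had the second widest range, 8.75-fold. It was 148 and 176 CPM at RA_0. At 1 h it was 867 and 230 CPM after acupuncture and 348 and 412 CPM after placebo. At 34 days it was 598 and 938 CPM after acupuncture and 107 and 234 CPM after placebo. The libraries of AP_1h, PLA_1h and AP_34d all lay above those of RA_0, and those of AP_34d also above those of PLA_34d. PLA_34d overlapped RA_0. The other cathepsins of the same gene family on the list, Cts7, Cts8, Ctsm, Ctsq, Ctsql2 and Ctsr, had no read in any library.

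No change of Ctsl1 passed the limma test over all transcripts. Its log2 change was 2.23 ± 0.59 (SE) from PLA_34d to AP_34d (limma unadjusted p 0.00359, adjusted p 0.846) and 2.21 ± 0.59 from RA_0 to AP_34d (unadjusted p 0.00387, adjusted p 0.801). The group means behind these were 768 ± 240.1 CPM at AP_34d, 171 ± 89.7 at PLA_34d and 162 ± 19.2 at RA_0 (SD, n = 2). DESeq2 on the recovered reads called both, with adjusted p 0.0302 and 0.0337. Over all settings the adjusted p reached 1.00 in each, and without PLA_34d replicate 1, the library that stood apart, the change between the therapies at 34 days was 1.67 (limma adjusted p 1.00). At 1 h the log2 change from RA_0 was 1.46 ± 0.59 after acupuncture (unadjusted p 0.0330, adjusted p 0.524) and 1.23 ± 0.59 after placebo (unadjusted p 0.0653, adjusted p 1.00). The first moved with either AP_1h library, being 0.51 without replicate 1 and 2.42 without replicate 2. The difference between acupuncture and placebo was larger at 34 days than at 1 h by 2.00 ± 0.84 on the log2 scale (unadjusted p 0.0382, adjusted p 1.00), and by 1.04 without AP_1h replicate 2 and 2.95 without AP_1h replicate 1. Legumain (Lgmn), a protease that processes cathepsin L, was at 74.0 and 102.5 CPM at AP_34d and between 33.8 and 79.7 CPM in the other 8 libraries.

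**Figure D2:**
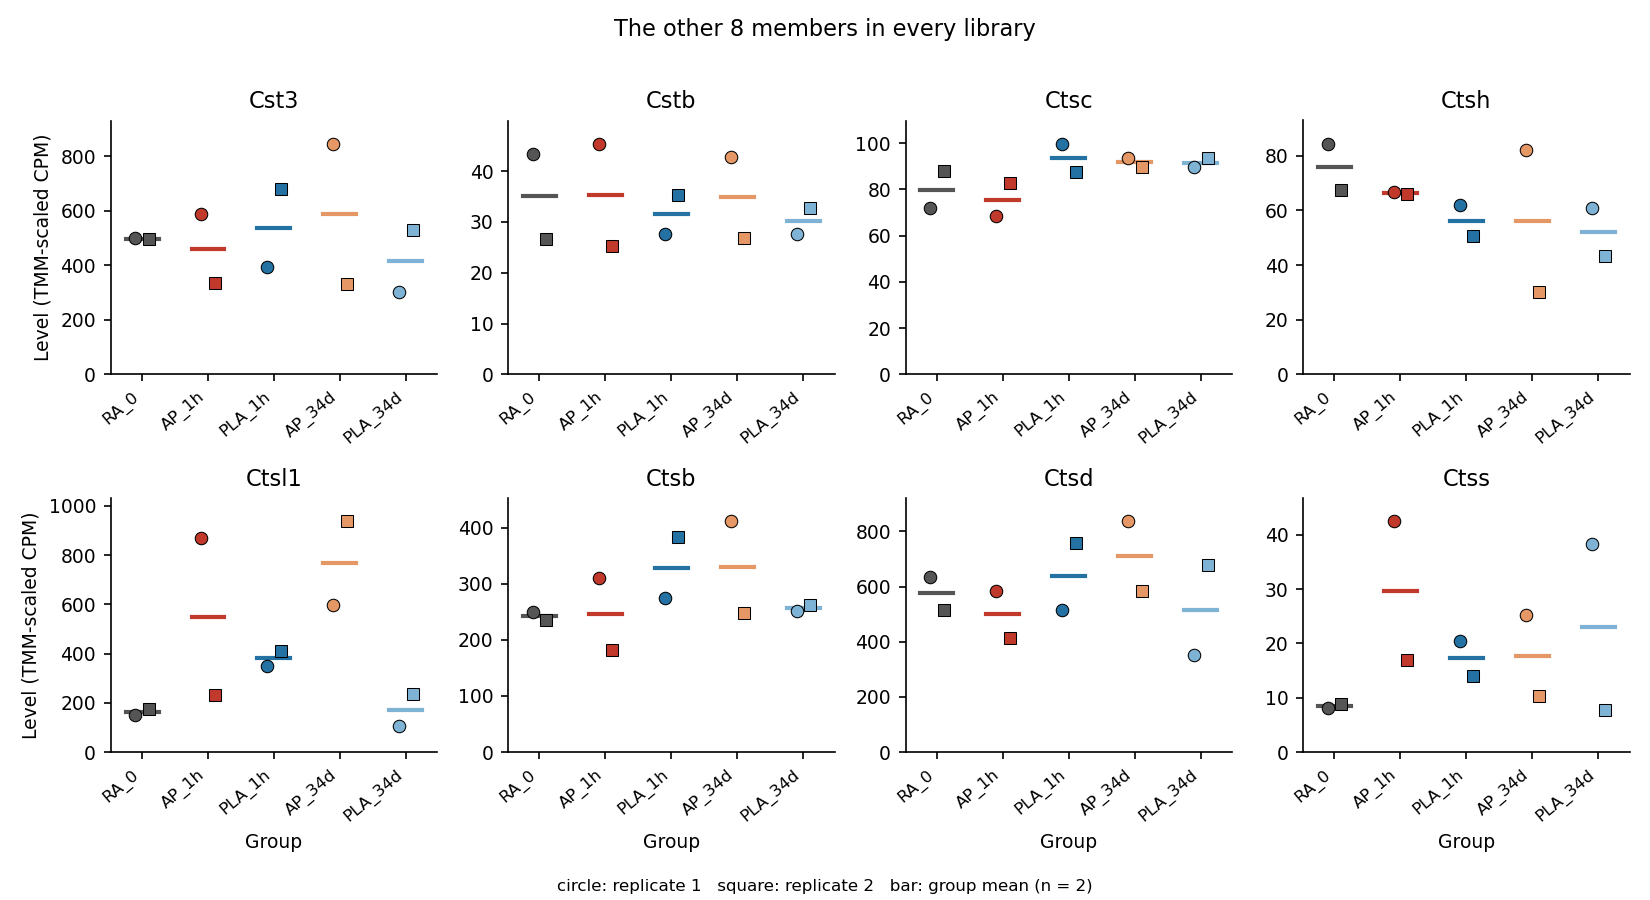
Levels of the other 8 genes in every library, in TMM-scaled CPM on linear axes that start at 0, by group. Circles are replicate 1, squares replicate 2 and bars the group means (n = 2). Ctsl1 is highest at AP_34d (598 and 938 CPM) and Ctsc stays between 68.3 and 99.8 CPM.

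Ctsb (cathepsin B, NM_022597, rn4 chromosome 15, 42402829 to 42423701, plus strand), which cuts both within chains and at their ends, ran from 181 CPM in AP_1h replicate 2 to 412 CPM in AP_34d replicate 1. It was 249 and 235 CPM at RA_0 and 253 and 263 CPM at PLA_34d. The PLA_1h libraries, at 274 and 383 CPM, lay above both of these groups. Ctsb had the smallest p other than that of Cst7 between AP_1h and PLA_1h, with a log2 change of -0.45 ± 0.38 (SE, limma unadjusted p 0.269, adjusted p 1.00). This change was -0.83 without AP_1h replicate 1 and -0.06 without AP_1h replicate 2, and -0.69 and -0.21 without PLA_1h replicates 1 and 2. The ratio of Ctsl1 reads to Ctsb reads, which needs no scaling, was 0.596 and 0.747 at RA_0 and 0.424 and 0.891 at PLA_34d. It was above 1 in the other groups, 2.79 and 1.27 at AP_1h, 1.27 and 1.08 at PLA_1h and 1.45 and 3.79 at AP_34d.

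Ctss (cathepsin S, NM_017320, rn4 chromosome 2, 190422647 to 190466877, plus strand), which antigen-presenting cells use to cut the invariant chain of MHC class II, had from 34 to 393 reads a library. It was 8.11 and 8.91 CPM at RA_0, 42.5 and 16.9 at AP_1h and 20.5 and 14.04 at PLA_1h. At 34 days it was 25.2 and 10.3 CPM after acupuncture and 38.4 and 7.82 CPM after placebo. The libraries of AP_1h, PLA_1h and AP_34d did not overlap those of RA_0. The log2 change from RA_0 to AP_1h was 1.56 ± 0.69 (SE, limma unadjusted p 0.0463, adjusted p 0.552) and fell to 0.92 without AP_1h replicate 1. From RA_0 to PLA_34d it was 0.97 ± 0.69 (limma adjusted p 0.914), and it was -0.11 without PLA_34d replicate 1 and 2.05 without PLA_34d replicate 2.

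Ctsd (cathepsin D, NM_134334, rn4 chromosome 1, 202619669 to 202631545, minus strand) is an aspartic protease, which cystatins do not block. It was 635 and 515 CPM at RA_0, 585 and 414 at AP_1h, 515 and 760 at PLA_1h, 837 and 583 at AP_34d and 350 and 677 at PLA_34d. All neighbouring groups in the order of its means overlapped. AP_34d replicate 1 was the highest and PLA_1h replicate 2 the next highest library for Ctsd, Ctsb and Cst3 alike. These libraries had TMM factors of 0.876 and 0.823, below 1, which raises scaled values. RA_0 replicate 1 had the lowest factor of all, 0.780. Scaled by library total alone, the range over libraries was 1.95-fold for Ctsd, 2.22-fold for Ctsb and 2.44-fold for Cst3, against 2.39-fold, 2.27-fold and 2.80-fold with TMM. The part of the scaling in their levels was not tested further.

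**Figure D3:**
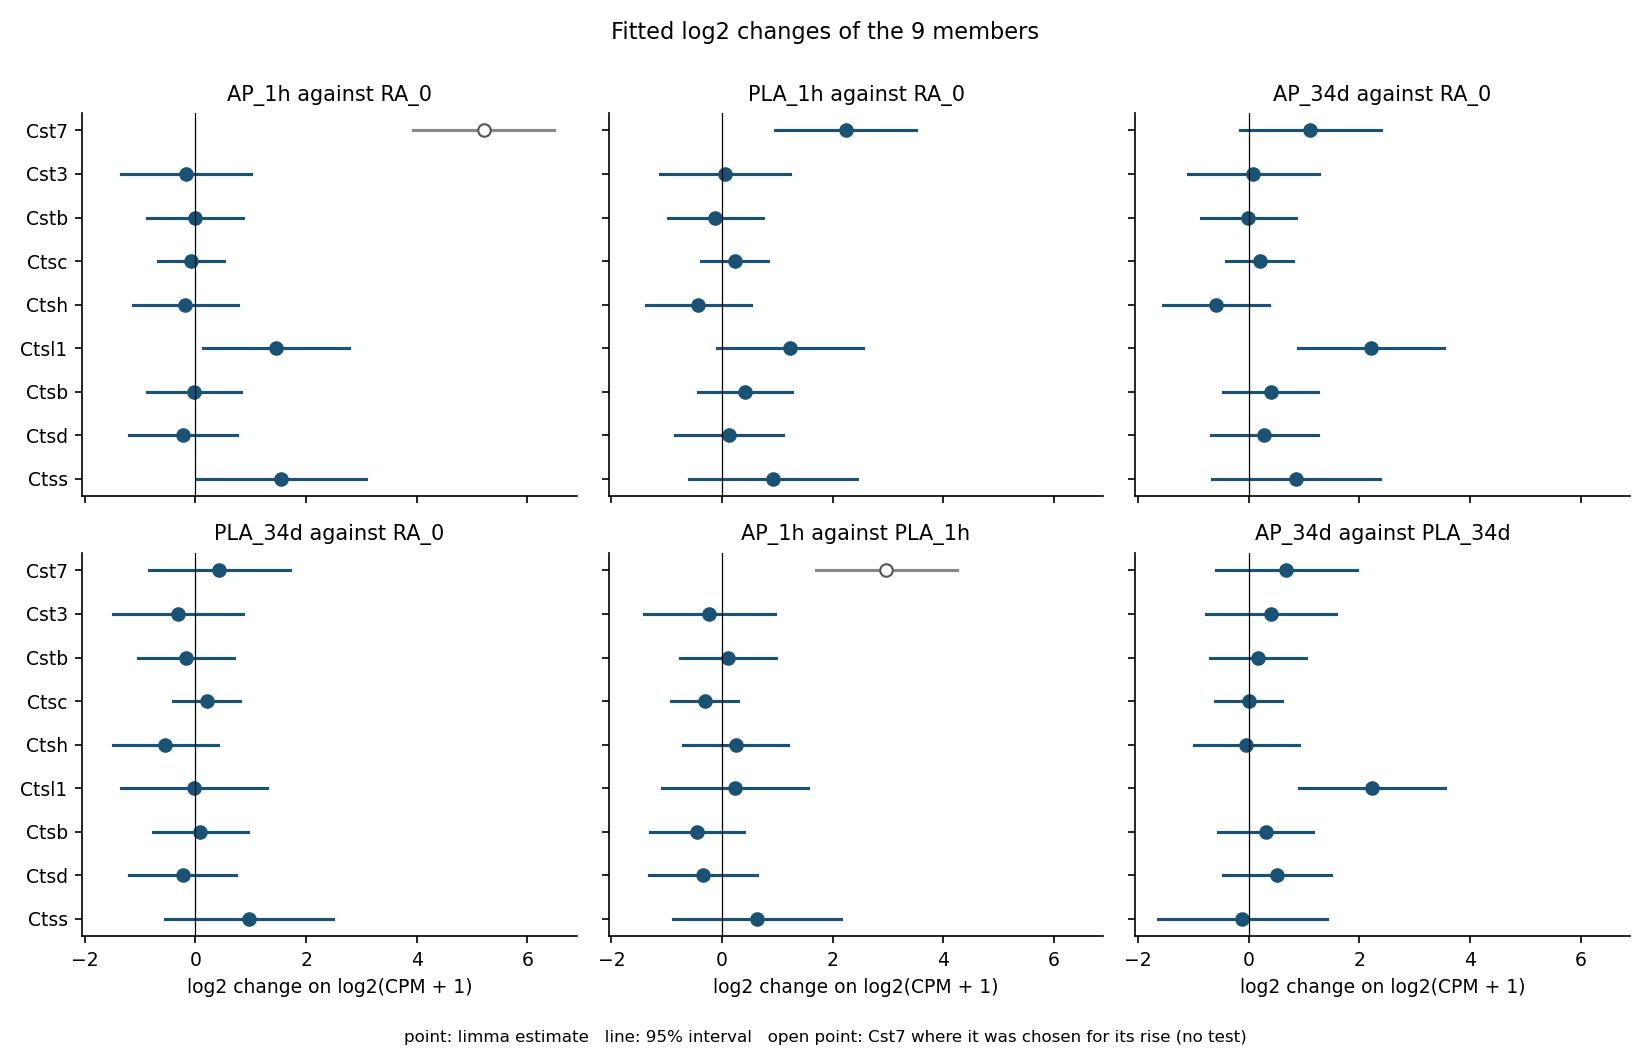
Fitted log2 changes of the 9 genes on log2(CPM + 1) in the 6 comparisons of 2 groups, with 95% intervals as lines. Open points are Cst7 in comparisons with AP_1h, for which it was chosen. Apart from these, intervals clear of 0 belong to Cst7 in PLA_1h against RA_0, and to Ctsl1 and Ctss in 1 or more comparisons, none of which passed adjustment over all transcripts.

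In AP_1h against RA_0, limma called 1 of the 9 genes at an adjusted p under 0.05, and this was Cst7. It called 0.0292% of all transcripts there, 3 of 10259, and nothing is read from the count because the gene was chosen on it. At an unadjusted p under 0.05 there were 3 of 9 (Cst7, by choice, and Ctsl1 and Ctss, all higher), against 8.89% of all transcripts. Libraries did not overlap in 4 of 9 (Cst7, by choice, and Ctsl1 and Ctss higher, Ctsh lower), against 41.6%. The median log2 change of the 8 genes other than Cst7 was -0.05, beside 0.00 over all transcripts.

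In each of the other comparisons limma called 0 of the 9, and 0% of all transcripts. In PLA_1h against RA_0, 1 of 9 (Cst7) was at an unadjusted p under 0.05, against 2.59% of all transcripts, and 5 of 9 did not overlap, against 29.4%. In AP_34d against RA_0 it was 1 of 9 (Ctsl1) against 4.77%, and 4 of 9 did not overlap against 32.3%. In PLA_34d against RA_0 it was 0 of 9 against 3.20%, and 3 of 9 did not overlap against 31.0%. Between the therapies at 1 h it was 1 of 9 (Cst7, by choice) against 4.04%, and 3 of 9 did not overlap against 30.6%. At 34 days it was 1 of 9 (Ctsl1) against 5.47%, and 2 of 9 did not overlap against 31.0%. For the difference between the therapies at 34 days less that at 1 h it was 2 of 9 (Cst7, by choice, and Ctsl1) against 4.05%. Comparisons with RA_0 share its libraries, so these counts are not independent of each other. The counts against RA_0 are also not free of the choice of Cst7, which can favour low RA_0 values.

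limma-voom and edgeR's quasi-likelihood test on the recovered reads called 0 of the 9 in every comparison. DESeq2 called Cst7 in AP_1h against RA_0 and against PLA_1h, and Ctsl1 in AP_34d against RA_0 and against PLA_34d, where it called 1.62%, 0.380%, 0.322% and 0.848% of all transcripts. The calls of Cst7 in these comparisons follow from its choice and are no test. DESeq2 called 0 of the 9 in PLA_1h against RA_0, in PLA_34d against RA_0 and in the difference between the 2 times.

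Of the other cathepsins, legumain and their partners, 8 of 16 listed transcripts passed the filter and limma called 0 in any comparison. At an unadjusted p under 0.05, Lgmn was higher in AP_34d than in RA_0 and than in PLA_34d, and Ctse was higher in PLA_34d than in RA_0. Each was 1 of 8 in its comparison, against 4.77%, 5.47% and 3.20% of all transcripts in both directions together, in that order. Ctse (cathepsin E, an aspartic protease of immune cells and epithelia) was at 37.0 CPM in PLA_34d replicate 1 and at most 2.81 CPM elsewhere. Ctsw, a cathepsin of cytotoxic lymphocytes, was at 11.8 CPM in that library and at most 4.11 CPM elsewhere. Cd74, the invariant chain that cathepsin S cuts, was at 680 CPM in that library and 442 CPM in AP_1h replicate 1, and at most 215 CPM elsewhere.

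Of 43 transcripts of other lysosome proteins, 37 were tested and limma called 0 in any comparison. From RA_0 to AP_1h, 4 were higher and 1 lower at an unadjusted p under 0.05 (Lamp2, Sort1, Atp6ap1 and Atp6v1h against Arsb), with a median log2 change of 0.03. The share at that threshold over all transcripts was 8.89%. The medians of this list lay between -0.01 and 0.13 in the 6 comparisons, beside -0.01 to 0.01 over all transcripts. Psap, the precursor of the saposins, which cells use widely, is listed at 0 in all 4 of its rows. Rows of genes with more than 1 transcript were at 0 in every library in 489 of 1291 cases, against 2867 of 15930 for genes with 1 row, and each of the 9 genes had 1 row with no overlapping transcript.

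Cystatin F and cathepsin S are leukocyte genes, so marker lists of leukocytes are given beside them. The summed level of the 23 macrophage and monocyte markers was 165 and 153 CPM at RA_0, 512 and 187 at AP_1h and 220 and 162 at PLA_1h. At 34 days it was 347 and 214 CPM after acupuncture and 557 and 133 CPM after placebo. The 20 cytotoxic lymphocyte markers summed to 8.83 and 7.87 CPM at RA_0, 64.8 and 17.5 at AP_1h, 21.0 and 8.25 at PLA_1h, 10.4 and 6.27 at AP_34d and 202 and 14.8 at PLA_34d. Both sums were higher in both AP_1h libraries than in both RA_0 libraries, and highest in PLA_34d replicate 1. From RA_0 to AP_1h, 8 of 21 tested macrophage and 5 of 9 tested cytotoxic markers were higher at an unadjusted limma p under 0.05. Over all 10259 transcripts, 371 were higher at that threshold (8.89% in both directions together), and limma called none of these markers. From RA_0 to PLA_34d the counts of higher markers were 0 of 21 and 4 of 9. Beside them, 244 of the 10259 transcripts were higher (3.20% in both directions together).

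Cst7 and Ctss stood differently beside these sums. Ctss was highest in AP_1h replicate 1 and PLA_34d replicate 1, the libraries with the largest sums on both lists. Cst7 was at 10.3 CPM in PLA_34d replicate 1, where both sums were largest, and at 293 CPM in AP_1h replicate 2, where they were 187 and 17.5 CPM. The sums lean on a few rows, and Laptm5 alone gave 143 CPM in PLA_34d replicate 1. Between that library and AP_1h replicate 1, single markers went both ways. Clec10a was at 5.61 against 34.4 CPM and Cd3e at 36.3 against 4.22 CPM. In bulk tissue, fewer cells of a type and less RNA per cell cannot be told apart, and the part of leukocyte content in the levels of Ctss and Cst7 was not tested.

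**Figure D4:**
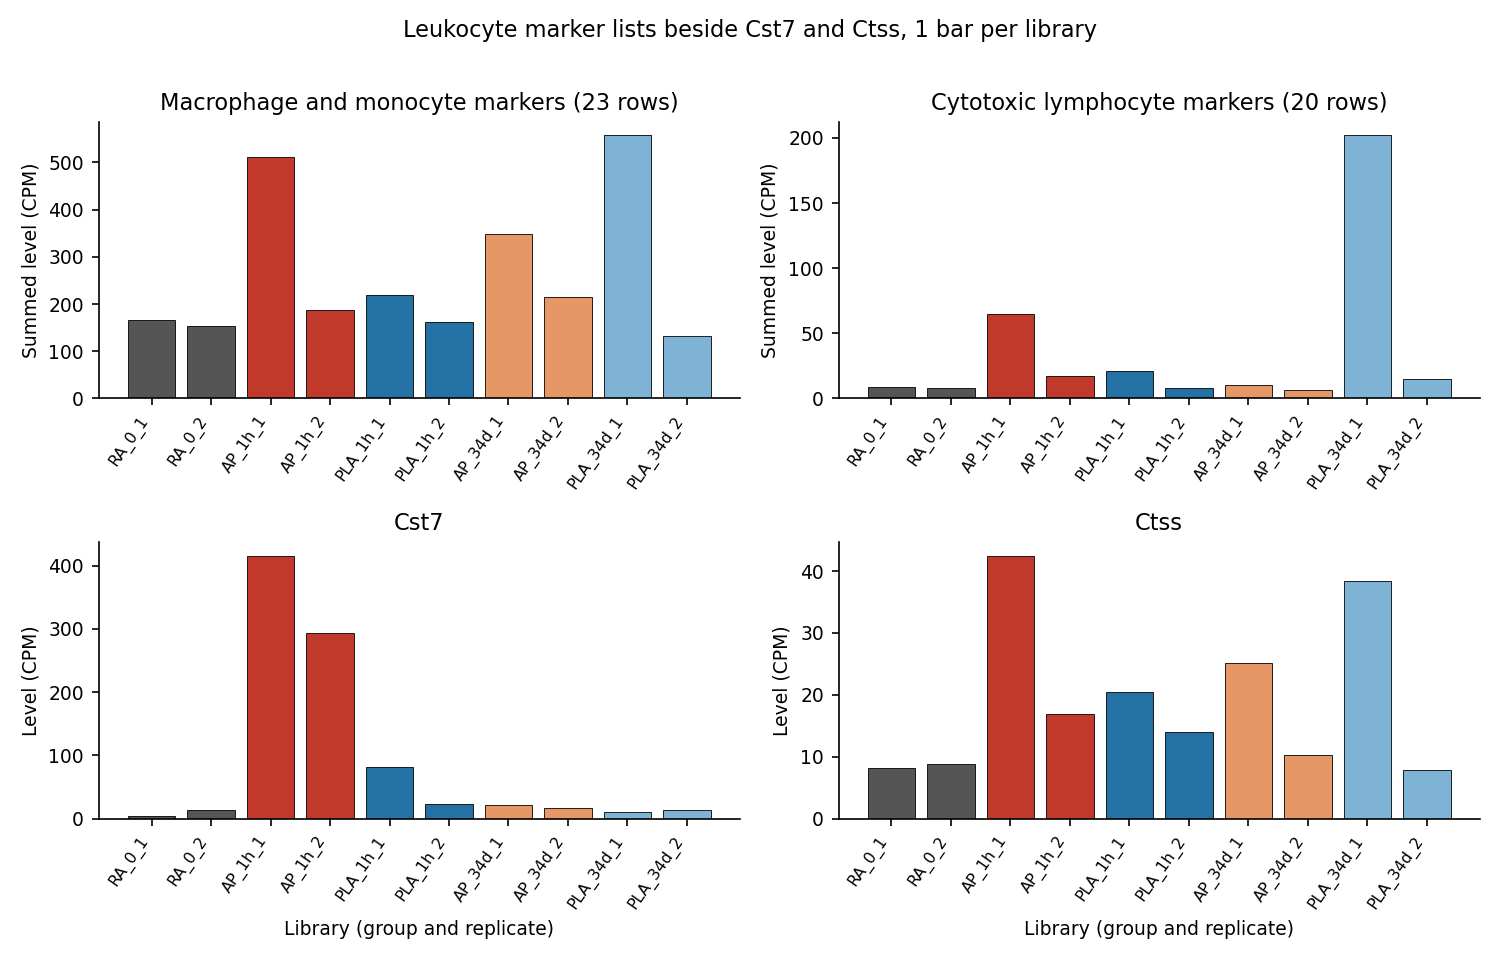
Summed levels of the macrophage and monocyte markers and of the cytotoxic lymphocyte markers (top), and levels of Cst7 and Ctss (bottom), in CPM, 1 bar per library. PLA_34d replicate 1 has the largest sums (557 and 202 CPM) and 10.3 CPM of Cst7.

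The other leukocyte lists summed to less than the macrophage and monocyte list in every library. The 12 mast cell markers summed to between 24.9 and 43.0 CPM in a library, and AP_1h, at 30.1 and 24.9 CPM, lay below RA_0, at 33.4 and 35.2 CPM. Neutrophil markers, with 12 of 14 read, summed to 31.0 and 5.60 CPM at AP_1h and to between 1.95 and 17.5 CPM elsewhere. Elane and Ltf were at or near 0. S100a9 had the highest mean, 4.67 CPM, and reached 11.4 CPM in PLA_1h replicate 2, and Lcn2 was at 10.9 CPM in AP_1h replicate 1. Eosinophil markers, with 9 of 11 transcripts read, summed to at most 5.55 CPM, with Epx at most 0.324 CPM.

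Among 8144 other transcripts with a mean of at least 5 CPM, the 5 whose log2 levels over the 10 libraries were most like those of Cst7 were Gadd45a (Pearson's r = 0.94), Myf6 (0.91), Tsc22d3 (0.90), Invs (0.89) and RGD1308874 (0.89). These are descriptions over 10 libraries in which the AP_1h pair carries most of the range of Cst7, and without that pair the r values over 8 libraries were 0.87, 0.72, 0.50, 0.69 and 0.80.

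Gadd45a, a gene that DNA damage and other stress induce, was 63.4 ± 34.7 CPM at RA_0, 818 ± 412 at AP_1h, 231 ± 176 at PLA_1h, 159 ± 74.8 at AP_34d and 65.8 ± 43.9 at PLA_34d (SD, n = 2). Its group means stood in the same order as those of Cst7. Myf6, a muscle transcription factor, was 868 ± 66.2 CPM at AP_1h and between 162 and 328 CPM as a mean of the other groups. Tsc22d3, known as a target of glucocorticoids, was 856 ± 11.4 CPM at AP_1h and between 216 and 382 CPM as a mean of the others. Over the 12 other ways of ranking, Gadd45a stayed among the 5 in 11, Myf6 in 8, Tsc22d3 in 5, RGD1308874 in 4 and Invs in 3. Each of these ways kept an AP_1h library, so staying among the 5 is not free of the peak Cst7 was picked for. Among the 8 other cystatin and cathepsin genes, r with Cst7 was highest for Ctss (0.53) and Ctsl1 (0.44) and lowest for Ctsc (-0.28), over the same 10 libraries. Without the AP_1h pair, over 8 libraries, r was 0.80 for Ctsc, 0.49 for Ctsl1 and 0.33 for Ctss, so that Ctsc moved from the lowest of the 8 genes to the highest.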

How the data were processed

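Polyadenylated RNA of 10 muscle samples was sequenced on an Illumina HiSeq. By the labels and by the methods of the study, reads were trimmed with cutadapt 1.2.1, aligned to rat build rn4 with Bowtie2 2.1.0 and counted per transcript with HTSeq 0.5.4p3, which drops reads that fit more than 1 transcript. Whether strand was used is not stated. The deposited values are a signal per transcript, CPM with TMM factors from edgeR 3.4.2. They are whole multiples of 1 read (100% of values, tolerance 0.01 reads), so the reads could be recovered.

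Here, limma 3.58.1 was fitted to log2(CPM + 1), which understates changes of low transcripts, with 1 mean per group over 10 libraries, eBayes with a mean trend and Benjamini-Hochberg adjustment; adjusted p under 0.05 was a call. limma-voom, edgeR 4.0.16, DESeq2 1.42.0, pseudocounts of 0.25 and 4, other filters and scalings, the compared groups alone, a replicate block and each library left out were alternatives. The code was tested on simulated counts. Exact permutation of 2 libraries against 2 cannot reach 0.05, so it is given for no gene. All 9 genes are named; changes are given for Cst7 and, per comparison, for others at an unadjusted p under 0.05, or else the 1 with the smallest p. Lgmn, Ctse, Ctsw, Cd74, Gzmk and the lysosome and leukocyte marker genes named were chosen after their values were seen. The genes and lists were chosen with earlier results of these data known. R 4.3.3 and Python 3.11.15 were used.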

Additional observations from a re-analysis of the deposited data

How the results depend on the processing

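The count of the 9 genes called was the same under all 21 alternatives in PLA_1h against RA_0, in PLA_34d against RA_0 and in the difference between the 2 times (0 in each). In AP_1h against RA_0 it fell from 1 (Cst7) to 0 with no filter on low values, with limma-voom, with edgeR, with library totals in place of TMM and with a replicate block, and it ran from 0 to 1 as libraries were left out. The libraries whose removal gave 0 were each of those of AP_1h and RA_0, and replicate 2 of AP_34d and of PLA_34d. Calls of Cst7 in comparisons with AP_1h, here and below, describe the choice of the gene and are no test of it. DESeq2 raised the count from 0 to 1 in AP_34d against RA_0 and in AP_34d against PLA_34d (Ctsl1 in both, log2 changes 2.23 and 2.16) and in AP_1h against PLA_1h (Cst7); leaving out libraries gave 0 to 0 in these comparisons. The direction of 2 named changes turned: Cst7 from RA_0 to PLA_34d was -0.22 without RA_0 replicate 1 (up to 1.09 without other libraries), and Ctss from RA_0 to PLA_34d was -0.11 without PLA_34d replicate 1 (up to 2.05 without other libraries). The difference between the 2 times in Cst7 ran from -3.18 to -1.41 without 1 or the other PLA_1h library. The cause of these shifts was not tested.

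Deviations of same-numbered libraries correlated between -0.464 and 0.446 over 10 pairs of groups, above 0.1 in 4. Each deviation rests on 1 difference between 2 libraries, so this cannot decide whether the replicate number pairs the samples. With the number as a replicate block, 0 of the 9 genes were called in AP_1h against RA_0 (1 without it) and 0 in the other comparisons. The lowest count of the 9 genes was 21 reads, for Cst7 in RA_0 replicate 1, and whether depth limited these genes was not tested. Having 2 animals a group limits every test.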
